A study of Homo sapiens with 6 samples.

Results

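The nuclear genes for the subunits of oxidative phosphorylation were followed in SW480 cells, a line established from a human colorectal adenocarcinoma. Members were the protein-coding rows of the count tables whose symbols carry the prefixes of complex I (NDUFA, NDUFB, NDUFC, NDUFS, NDUFV), complex II (SDHA to SDHD), complex III (UQCR and CYC1), cytochrome c oxidase (COX4 to COX8) and ATP synthase (ATP5). Assembly factors were left out, as was COX7A2L, which encodes a factor that joins complexes III and IV. This gave 90 members among 19488 protein-coding rows and 63677 rows in all. Complex I had 37 members, complex II 4, complex III 10, complex IV 18 and complex V 18. The 18 of complex IV include NDUFA4 and NDUFA4L2, which carry a complex I name although the NDUFA4 protein is a subunit of complex IV. The remaining members were ATP5IF1, the inhibitor of ATP hydrolysis by complex V, and the readthrough genes NDUFC2-KCTD14 and ATP5MF-PTCD1.

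Complexes I to IV form the respiratory chain of the inner mitochondrial membrane, in which electrons from NADH and succinate pass to oxygen while complexes I, III and IV pump protons, and complex V uses the proton gradient to make ATP. All of the complexes except complex II combine subunits from nuclear genes with subunits encoded in mitochondrial DNA. Many nuclear subunit genes have binding sites for NRF1, ETS-family factors such as GABPA, or YY1 near their start sites.

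The cells had been transduced with a vector in which doxycycline switches on either green fluorescent protein (GFP, the control) or POU5F1B, a retrogene copy of the gene for the pluripotency factor OCT4. All 6 libraries, 3 GFP and 3 POU5F1B, were made from polyadenylated RNA of cells kept in 1 µg/mL doxycycline for 72 h. Doxycycline is known to hinder the mitochondrial ribosome, and both groups received it, so the comparison is of POU5F1B with GFP under the drug. Nothing in the labels says that the replicates were separate cultures, so p-values measure the spread between these libraries, which may be technical. In bulk RNA, fewer cells that express a gene and less of its RNA per cell cannot be told apart.

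The libraries held 10767947 to 12787637 counts. POU5F1B itself had 6, 5 and 1 counts in GFP replicates 1, 2 and 3 and 15027, 11393 and 1458 counts in the POU5F1B replicates, so the third POU5F1B library held far less of it than the other two. GFP replicate 3 stood apart, with the lowest sample quality weight of the 6 libraries (0.111). It had 519 CPM (counts scaled to a common library size) of the epithelial surface gene EPCAM, against 86.8 and 89.4 CPM in the other GFP libraries and 252 to 331 CPM in the POU5F1B libraries. The keratins KRT8 and KRT18, which mark simple epithelium, ran from 2917 to 4251 CPM, whereas the intestinal keratin KRT20 had 9 to 19 counts. The leukocyte markers PTPRC and CD3E had at most 3 counts, CD14 had 0 to 16, and the fibroblast marker DCN had at most 3 counts. The fibroblast marker LUM had 34 counts in GFP replicate 3, 5 in POU5F1B replicate 3 and 0 in the other libraries. COL1A2, also of fibroblasts, had 19, 19 and 1 counts in GFP replicates 1, 2 and 3 and 0, 2 and 1 in the POU5F1B replicates. The endothelial marker VWF had 13 to 81 counts. A pair of markers were apart between the groups: the collagen gene COL1A1 had 142, 118 and 16.9 CPM in the GFP replicates and 6.76, 5.56 and 9.49 CPM with POU5F1B, and the epithelial cadherin gene CDH1 had 33.7, 30.2 and 72.7 CPM with GFP and 164, 159 and 98.3 CPM with POU5F1B. The epithelial markers VIL1 and CDX2 did not follow CDH1: their groups overlapped, and replicate 3 was the highest library of each group. VIL1 had 274, 184 and 2420 counts in GFP replicates 1, 2 and 3 and 543, 406 and 1332 in the POU5F1B replicates. CDX2 had 329, 256 and 381 counts with GFP and 208, 158 and 445 with POU5F1B. The part of these markers in the results was not tested.

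The members covered a wide range of levels. Per kilobase of transcript, the highest levels in each complex were those of NDUFA1 in complex I (220 CPM per kb), SDHB in complex II (114), UQCRH in complex III (207), COX6B1 in complex IV (347) and ATP5F1B in complex V (666). ATP5F1B, the catalytic beta subunit of ATP synthase, had 1150, 1192 and 1017 CPM with GFP (replicates 1, 2 and 3, the order used throughout) and 1183, 1273 and 1216 CPM with POU5F1B, and alone made up 28.7% to 36.8% of the summed level of complex V. Its groups overlapped, with a log2 fold change of POU5F1B over GFP of 0.13 ± 0.10 (SE). Of the 90 members, 80 passed the filter on low counts, with mean counts per library from 12.5 to 14060 and a median of 1090.

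Single members differed little between the groups relative to the spread between libraries. With limma (voom, Benjamini-Hochberg adjustment over 14286 tested genes), 0 of 80 members had an adjusted p under 0.05, beside 0% of all tested genes. The smallest adjusted p of a member was 0.308. POU5F1B itself was not called in this fit either, at a log2 fold change of 10.7 (limma adjusted p = 0.252). By edgeR (quasi-likelihood) and by DESeq2 (Wald) 0 members were called as well, beside 0% and 2.9% of all tested genes. At an unadjusted p under 0.05 limma counted 6 members (7.5%), beside 11.9% of all tested genes. Of these, 2 were higher with POU5F1B (6.07% of all tested genes were called in that direction) and 4 lower (5.82%). The 95% interval of the fold change lay within 2-fold in either direction for 74 of 80 members (92.5%), against 60.4% of all tested genes. The exceptions were NDUFA3, NDUFA5, NDUFA13, NDUFB7, NDUFS7 and COX6B2. The median size of the log2 fold change, regardless of sign, was 0.14 over the members and 0.23 over all tested genes. The median SE was 0.14 and 0.24. The other gene lists, described below, were close to the members. Of their 279 tested genes 92.5% had an interval within 2-fold, and the median size was 0.12. For cytosolic ribosomal protein genes these values were 100% and 0.09.

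The count of 0 calls depended on GFP replicate 3. Without it, 9 members passed an adjusted p of 0.05 in limma, beside 12.1% of all tested genes: NDUFV3, UQCRQ, ATP5PF and ATP5PO were higher with POU5F1B, and NDUFA2, NDUFB1, NDUFB4, NDUFB5 and ATP5PD were lower. Leaving out any other single library, POU5F1B replicate 3 included, gave 0 members. With replicates 1 and 2 of each group alone, 17 members passed (21.2%; 5 higher and 12 lower), beside 29.7% of all tested genes, and none of them by more than 2-fold, beside 8.36% of all tested genes. GFP replicate 3 was the highest or the lowest of the 6 libraries in 47 of 80 members (58.8%), the highest in 35 and the lowest in 12, against 63.8% of all tested genes.

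By sign alone, 55 of 80 members were lower and 25 higher with POU5F1B, so that 68.8% were lower, beside 53.1% of all tested genes. Their median log2 fold change was -0.09, against -0.02 for all tested genes. In complex I, 30 of 36 tested members were lower, with a median log2 fold change of -0.14, and the median was -0.12 in complex V (12 of 17 lower), -0.01 in complex III (5 of 10), 0.02 in complex IV (5 of 12) and 0.03 in complex II (2 of 4). The median of complex I was below 0 in every alternative setting, scalings included (-0.19 to -0.11). Values of the GFP and POU5F1B libraries did not overlap in 18 members (22.5%; 5 higher, 13 lower), beside 19.4% of all tested genes. Higher without overlap were NDUFB8, NDUFS1, NDUFV3, CYC1 and UQCRQ, beside 10.2% of all tested genes in that direction. Lower without overlap were NDUFA1, NDUFA3, NDUFB1, NDUFB2, NDUFB6, NDUFS8, UQCRB, UQCRHL, COX6B1, ATP5MC1, ATP5MF, ATP5MG and ATP5MJ, beside 9.24%.

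**Figure D1:**
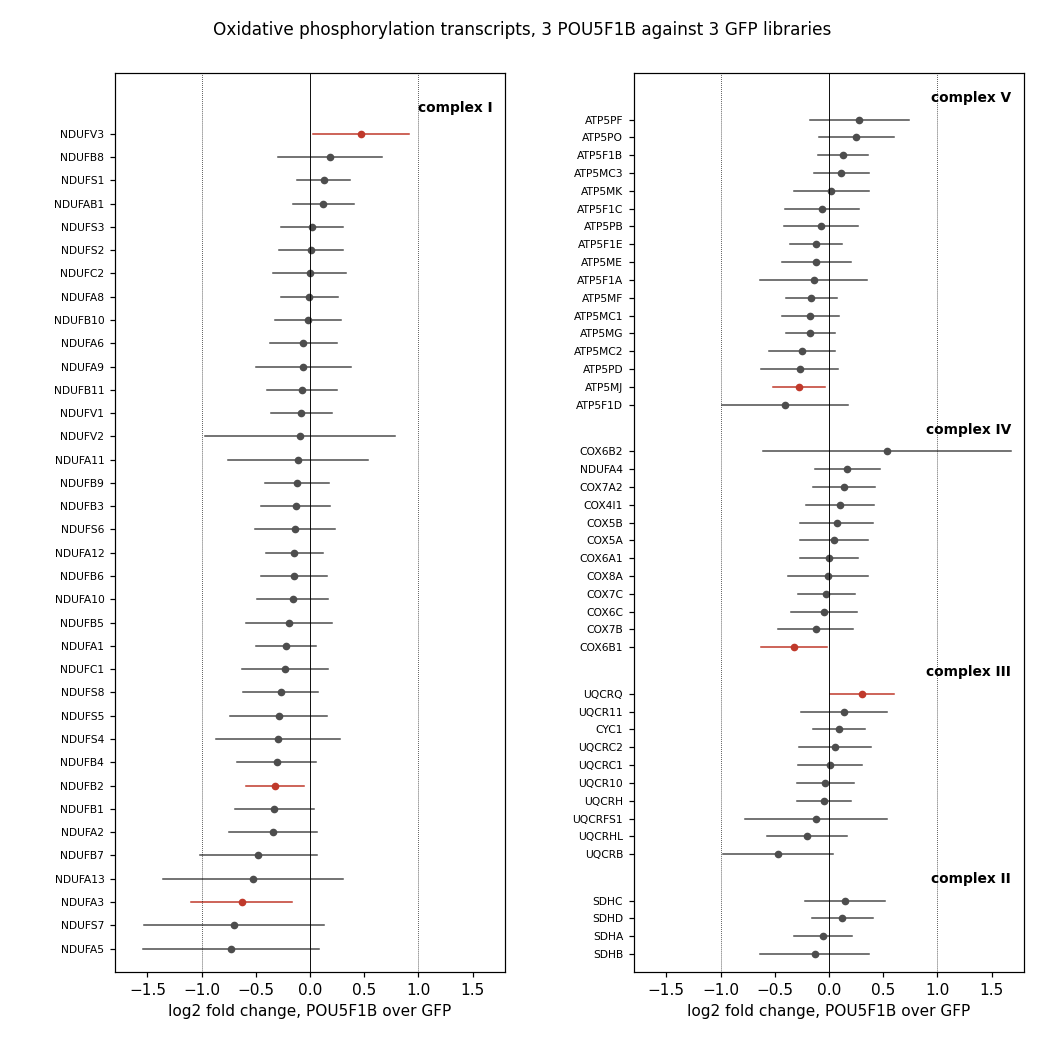
Log2 fold change (x axis) of each of the tested members of complexes I to V, one per line, as points with 95% intervals from limma; red marks an unadjusted p under 0.05 and dotted lines mark 2-fold. In complex I 30 of 36 points lie left of 0, while those of complexes II, III and IV lie on both sides of it.

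Summed over its 37 genes, complex I had 2482, 2456 and 2590 CPM in GFP replicates 1, 2 and 3 and 2202, 2275 and 2352 CPM in the POU5F1B replicates. All 3 POU5F1B libraries thus lay below all 3 GFP libraries, and the means were 2277 ± 75.1 and 2510 ± 71.3 (SD, n = 3 each), a difference of -9.28%. Without replicate 3 of both groups the difference was -9.34%. No other complex was separated in this way. The difference was -0.958% in complex II, -1.02% in complex III, -0.698% in complex IV and -1.85% in complex V, and in each of these the libraries of the 2 groups overlapped. Complex V, for example, had 3354, 3427 and 3541 CPM with GFP and 3218, 3463 and 3451 CPM with POU5F1B. Summed over all tested genes, the difference was -2.70%, and 0.937% without replicate 3 of both groups. These sums are descriptions, with no test, and weigh each gene by its level.

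**Figure D2:**
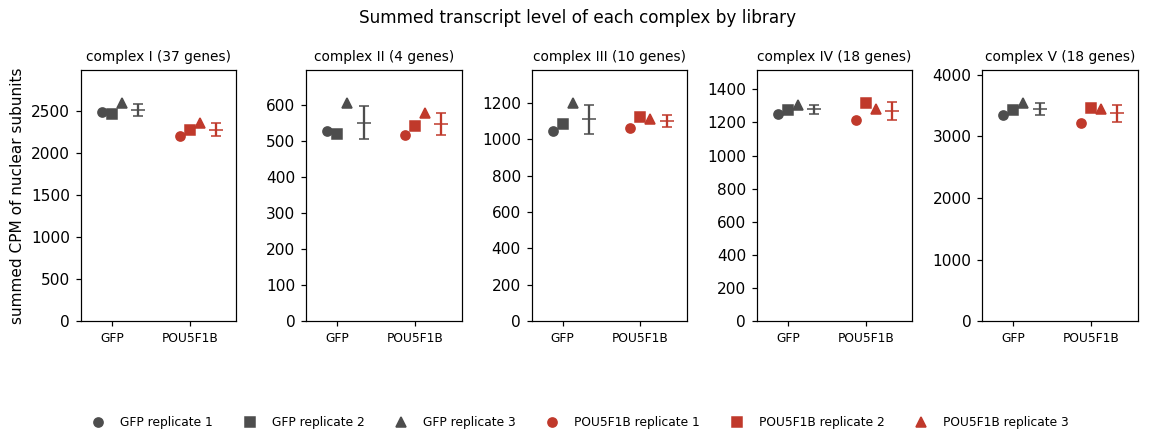
Summed CPM (y axis, from 0) of the nuclear subunit genes of each complex in each library, with symbols for replicates and bars for the mean ± SD of 3 libraries. The POU5F1B libraries lie below the GFP libraries in complex I (2202 to 2352 against 2456 to 2590 CPM) and overlap them in the other complexes.

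Within complex I the core and the accessory subunits, which surround it, were summed apart. The 7 core subunits, which carry the flavin and the iron-sulphur clusters or bind quinone, had 678, 658 and 720 summed CPM with GFP and 653, 655 and 708 CPM with POU5F1B, a difference of -1.95% with overlapping groups, and 4 of 7 were lower. The 13 accessory subunits with NDUFA names had 710, 714 and 781 summed CPM with GFP and 600, 660 and 660 CPM with POU5F1B, a difference of -12.9%, and 11 of 12 tested were lower. The 11 accessory subunits with NDUFB names, which sit in the membrane arm, had 834, 832 and 737 summed CPM with GFP and 686, 689 and 706 CPM with POU5F1B, a difference of -13.4%, and 10 of 11 were lower. In both of these groups no POU5F1B library reached the lowest GFP library. The 6 remaining accessory genes, among them NDUFV3, overlapped in their sum (252 to 352 CPM with GFP, 264 to 279 CPM with POU5F1B). Whether accessory and core subunits differed in their change was not tested.

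NDUFA3 (ENSG00000170906; GRCh37 chr19:54606036-54612564, + strand), a small accessory subunit of the membrane arm, had the smallest p of all members. Its level was 46.3, 46.7 and 62.2 CPM in GFP replicates 1, 2 and 3 and 29.3, 30.1 and 40.6 CPM in the POU5F1B replicates. Every POU5F1B library lay below every GFP library, and replicate 3 was the highest in both groups. The log2 fold change was -0.63 ± 0.20 (limma adjusted p = 0.308). NDUFB2 (ENSG00000090266; chr7:140390577-140422590, + strand), another accessory subunit of the membrane arm, had 108, 109 and 100 CPM with GFP and 84.5, 78.0 and 91.7 CPM with POU5F1B, again without overlap (log2 fold change -0.32 ± 0.11; limma adjusted p = 0.350). With replicates 1 and 2 alone, 5 of the 11 NDUFB genes passed an adjusted p of 0.05 in limma, all lower, beside 15.5% of all tested genes called lower in that fit: NDUFB1, NDUFB2, NDUFB4, NDUFB5 and NDUFB7.

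The lowest log2 fold changes of complex I came from members with wide spread. NDUFA5 (ENSG00000128609), an accessory subunit of the arm that reaches into the matrix, had 45.7, 54.2 and 106 CPM with GFP and 31.4, 46.1 and 40.0 CPM with POU5F1B. The groups overlapped, and GFP replicate 3 was far above the rest (log2 fold change -0.73 ± 0.34, limma adjusted p = 0.459). NDUFS7 (ENSG00000115286), the core subunit that holds the last iron-sulphur cluster before quinone, had 22.2, 25.1 and 39.8 CPM with GFP and 16.8, 11.4 and 26.0 CPM with POU5F1B. The third library was the highest of each group and POU5F1B replicate 2 the lowest of all (log2 fold change -0.70 ± 0.35, limma adjusted p = 0.482). Leaving out single libraries moved it between -1.002 and -0.43, and NDUFA5 between -0.96 and -0.39.

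NDUFV3 (ENSG00000160194; chr21:44299754-44333414, + strand), an accessory subunit beside the NADH-binding flavoprotein, went the other way. It had 41.7, 40.8 and 62.9 CPM with GFP and 69.3, 63.3 and 63.9 CPM with POU5F1B. The groups did not overlap, but GFP replicate 3 came within 1 CPM of the lowest POU5F1B library. The log2 fold change was 0.47 ± 0.19 (limma adjusted p = 0.394), and 0.66 (adjusted p = 0.0115) without GFP replicate 3. The next highest values of complex I were those of NDUFB8, at 4.72 to 5.64 CPM with GFP and 5.82 to 6.16 CPM with POU5F1B, and NDUFS1, the large iron-sulphur core subunit, at 187 to 191 and 197 to 226 CPM. Both were without overlap and had limma adjusted p-values of 0.753 and 0.662.

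Complex II, the succinate dehydrogenase of the citric acid cycle, showed no separation of the groups in any of its 4 genes. The catalytic subunit SDHA had 244, 234 and 258 CPM with GFP and 225, 222 and 264 CPM with POU5F1B (log2 fold change -0.05, 95% interval -0.32 to 0.21). The iron-sulphur subunit SDHB had 98.1, 105 and 165 CPM with GFP and 103, 105 and 118 CPM with POU5F1B (95% interval -0.63 to 0.37), so that only GFP replicate 3 was high. The membrane anchors SDHC and SDHD had log2 fold changes of 0.15 and 0.12.

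In complex III, UQCRQ and UQCRB, small subunits near the quinone-binding cytochrome b, had opposite signs. UQCRQ (ENSG00000164405; chr5:132202322-132204539, + strand) had 86.9, 87.8 and 104 CPM with GFP and 112, 124 and 109 CPM with POU5F1B, without overlap (log2 fold change 0.30 ± 0.12; limma adjusted p = 0.405). UQCRB had 72.2, 81.5 and 122 CPM with GFP and 58.4, 69.1 and 66.2 CPM with POU5F1B. Its groups did not overlap either, and GFP replicate 3 was well above the rest (log2 fold change -0.47 ± 0.21, limma adjusted p = 0.437). The hinge subunit gene UQCRH had 108 to 115 CPM with GFP and 103 to 116 CPM with POU5F1B, and its retrocopy UQCRHL 16.6 to 18.3 and 14.4 to 15.8 CPM. Only uniquely mapped reads were counted, so reads that fit both of these near-identical copies were left out and their levels are uncertain.

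In complex IV, COX6B1 (ENSG00000126267; chr19:36139225-36149684, + strand), a subunit on the side of the intermembrane space, had 173, 180 and 212 CPM with GFP and 135, 153 and 163 CPM with POU5F1B. The highest POU5F1B library was below the lowest GFP library (log2 fold change -0.32 ± 0.13; limma adjusted p = 0.393). NDUFA4 had 149, 155 and 184 CPM with GFP and 170, 200 and 178 CPM with POU5F1B, with overlap (log2 fold change 0.17 ± 0.13). The other ubiquitous subunits lay between -0.12 (COX7B) and 0.14 (COX7A2).

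The isoforms of complex IV known from other tissues were at or near 0 in both groups. COX6A2 and COX8C, of muscle and testis, had 0 counts in all libraries, where 3 counts correspond to 0.229 to 0.278 CPM. COX4I2, known as an oxygen-responsive form expressed in lung, had 1 count in GFP replicate 1 and 1 in POU5F1B replicate 3, beside 141 to 186 CPM of COX4I1. The muscle form COX7A1 had 1 count in all and COX7B2 2. COX6B2, the testis form, had 0.457 to 1.13 CPM with GFP and 0.741 to 1.57 CPM with POU5F1B, with overlap. NDUFA4L2, a target of hypoxia-inducible factors that can take the place of NDUFA4, had 3, 5 and 4 counts with GFP and 13, 6 and 4 with POU5F1B, below the filter. The hypoxia-inducible factor subunit gene EPAS1 had 100, 84.6 and 58.0 CPM with GFP and 348, 347 and 335 CPM with POU5F1B, without overlap (log2 fold change 2.12 ± 0.19, limma adjusted p = 0.122).

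In complex V, ATP5MJ (ENSG00000156411; chr14:104378625-104394606, - strand), a small protein of the membrane part, had 111, 118 and 112 CPM with GFP and 89.6, 96.2 and 95.3 CPM with POU5F1B. The groups were apart and the spread within each was small (log2 fold change -0.28 ± 0.10; limma adjusted p = 0.357). The other genes of the membrane part lay the same way except for ATP5MK, and the sum of this group of 6 genes was 553, 560 and 564 CPM with GFP and 479, 512 and 508 CPM with POU5F1B, a difference of -10.6% without overlap. The 5 genes of the catalytic F1 part and its central stalk had a summed level 1.26% higher with POU5F1B, with overlap. By sign, however, 4 of these 5 genes were lower, with a median log2 fold change of -0.12. Only ATP5F1B, which has the highest level, was higher. The delta subunit gene of the F1 part, ATP5F1D, had 34.8, 35.3 and 48.5 CPM with GFP and 32.0, 21.2 and 36.7 CPM with POU5F1B (log2 fold change -0.40 ± 0.24, limma adjusted p = 0.560).

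The peripheral stalk, which holds the F1 head in place, split by gene. ATP5PF (ENSG00000154723; chr21:27088815-27107984, - strand) had 74.1, 83.2 and 122 CPM with GFP and 108, 115 and 108 CPM with POU5F1B, and ATP5PO (ENSG00000241837; chr21:35275757-35288118, - strand) had 72.6, 78.6 and 100 CPM with GFP and 95.3, 101.5 and 99.7 CPM with POU5F1B. GFP replicate 3 was above all POU5F1B libraries in ATP5PF and among them in ATP5PO, and the other GFP libraries lay below them in both. Their log2 fold changes were 0.28 ± 0.19 and 0.25 ± 0.14, and without GFP replicate 3 they were 0.48 and 0.37 (limma adjusted p = 0.0226 and 0.0398). ATP5PD of the same stalk had a log2 fold change of -0.27 ± 0.15.

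**Figure D3:**
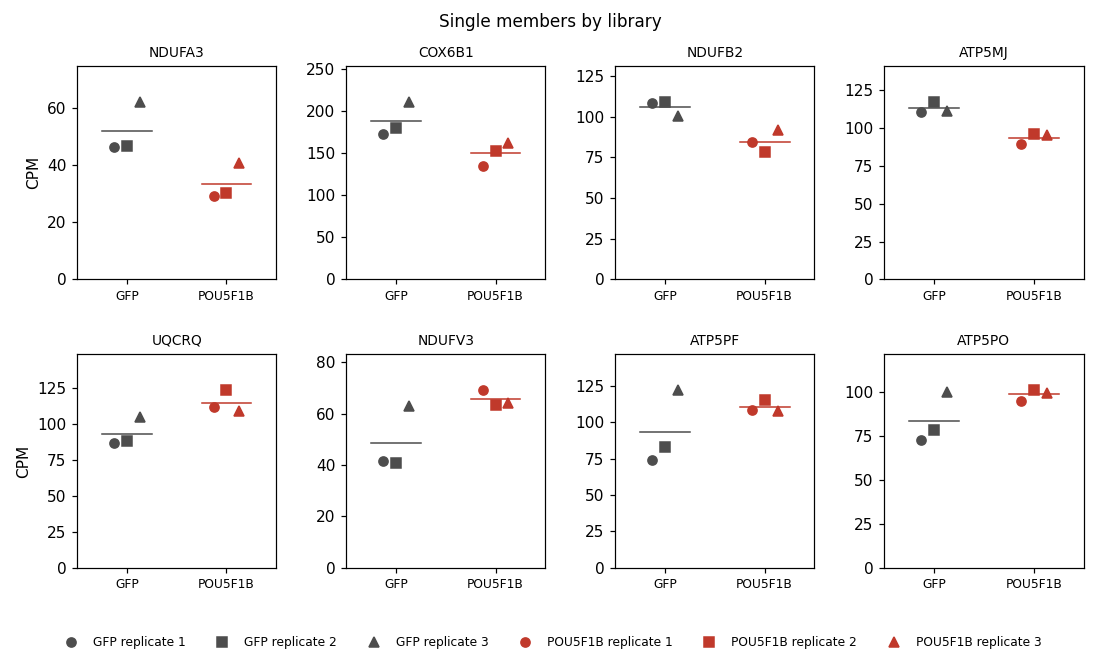
CPM (y axis, from 0) in each library of the 6 members with an unadjusted limma p under 0.05 and of ATP5PF and ATP5PO; symbols stand for replicates and lines for group means. The groups are apart in the first 6 panels, and the third GFP library lies above the POU5F1B libraries in ATP5PF (122 CPM) and among them in ATP5PO (100 CPM).

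The c-ring, the rotor of ATP synthase, is built from 1 mature protein that the genes ATP5MC1, ATP5MC2 and ATP5MC3 encode with different import sequences. Of the counts of the 3 genes, not scaled by length, ATP5MC2 took 41.3%, 39.6% and 39.2% with GFP and 35.5%, 34.4% and 37.5% with POU5F1B. ATP5MC3 took 37.6%, 37.3% and 37.3% with GFP and 43.6%, 43.4% and 41.7% with POU5F1B. The share of ATP5MC2 was thus lower and that of ATP5MC3 higher in every POU5F1B library than in any GFP library, whereas the share of ATP5MC1 overlapped (21.1% to 23.5% and 20.8% to 22.2%). The shares do not rank the genes: per kilobase, over all libraries, ATP5MC2 had 275, ATP5MC1 155 and ATP5MC3 70.7 CPM per kb. This comparison was chosen after the values had been seen and carries no test. As single genes, ATP5MC2 and ATP5MC3 had log2 fold changes of -0.25 ± 0.13 and 0.11 ± 0.11 (limma adjusted p = 0.497 and 0.698).

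**Figure D4:**
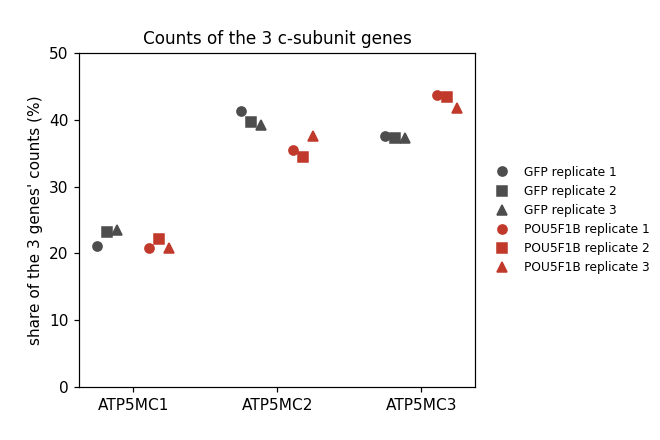
Share (y axis, percent) of each of the 3 c-subunit genes in their summed counts, by library; symbols stand for replicates. ATP5MC2 runs from 39.2% to 41.3% with GFP and 34.4% to 37.5% with POU5F1B, and ATP5MC3 from 37.3% to 37.6% and 41.7% to 43.6%.

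Members were also set beside the other genes of their chromosomes, and the chromosomes named here were chosen after the values had been seen. The 3 members on chromosome 21 (NDUFV3, ATP5PF and ATP5PO) were all higher with POU5F1B, with a median log2 fold change of 0.28. The other 130 tested genes of chromosome 21 had a median of 0.33, and 83.1% of them were higher. Of the 10 tested members on chromosome 19, among them NDUFA3, COX6B1, NDUFS7, NDUFB7 and ATP5F1D, 8 were lower, with a median of -0.36. The other 989 tested genes of chromosome 19 had a median of -0.16, and 28.9% of them were higher. On chromosomes 5, 7 and 14, 5 of 6, 3 of 4 and 2 of 2 members were lower, where 30.7%, 35.1% and 28.7% of the other genes were higher. On chromosome 1, by contrast, 6 of 8 members were lower while 53.8% of the other 1416 genes were higher. The part of the chromosome in these values was not tested.

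The deviations of several libraries moved with the base composition of the transcripts, most in POU5F1B replicate 2. Among 79 members with a known transcript, the deviation of POU5F1B replicate 2 from the mean of the other POU5F1B libraries had a Spearman correlation of -0.70 with GC content, and -0.56 over 13906 tested genes. For GFP replicate 3 the correlation was -0.17 in the members and -0.44 over all tested genes, for GFP replicate 1 0.25 and 0.44, and for POU5F1B replicate 3 0.49 and 0.34. These are correlations across genes of the same libraries, which are not independent. Of the 8 members with more than 60% GC, 6 had their lowest value in POU5F1B replicate 2, against 6 of the other 71. The median deviation was -0.54 on the log2 scale in the 8 and 0.07 in the 71, with -0.86 in NDUFS7, -0.74 in NDUFB7, -0.70 in NDUFA11 and -0.69 in ATP5F1D. With a correction for GC content and length, the log2 fold change of NDUFS7 was -0.69 and that of ATP5F1D -0.32, and the median of complex I was -0.19. The same correction brought NDUFA5 to -0.44 and UQCRB to -0.20.

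**Figure D5:**
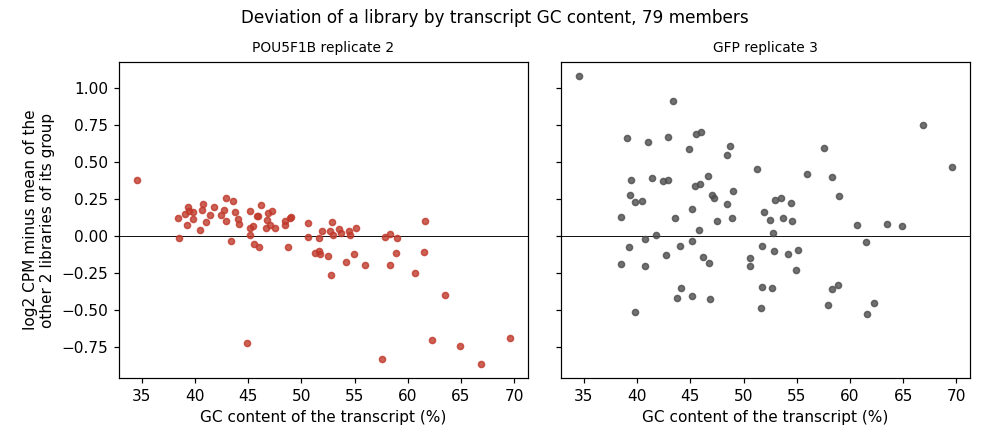
GC content of the transcript in percent (x axis) against the deviation of a library from the mean of the other 2 libraries of its group on the log2 CPM scale (y axis), 1 point per member (79 members), for POU5F1B replicate 2 (left) and GFP replicate 3 (right). Points of GC-rich members lie low on the left, where the Spearman correlation is -0.70, and it is -0.17 on the right.

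Promoters of the 6 members with an unadjusted p under 0.05 are shown to compare those that were lower with those that were higher. RefSeq promoters of GRCh38.p14, from 250 bases before to 50 after a start site, were matched for 72 of 90 members (85 promoters). The searched motifs, on both strands, were GCGCA, any base and GCGC in a row for NRF1, CCGGAAG for ETS factors and ATGGCGGC for YY1. The NRF1 motif was in 20% of member promoters (5.78% of all promoters, 9.72% of those of tested genes), the ETS motif in 25.9% (10.3% and 16.7%) and the YY1 motif in 15.3% (2.996% and 5.25%). Members with any of the motifs had a median log2 fold change of -0.07 (38 members), and those without -0.11 (28 members). The lines below give the 100 bases before the start site, with motif matches in capitals.
NDUFA3 (lower; chr19:54102755-54102854, + strand, NRF1): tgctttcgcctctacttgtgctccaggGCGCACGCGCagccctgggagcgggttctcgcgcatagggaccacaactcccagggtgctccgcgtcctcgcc
NDUFB2 (lower; chr7:140696608-140696707, + strand): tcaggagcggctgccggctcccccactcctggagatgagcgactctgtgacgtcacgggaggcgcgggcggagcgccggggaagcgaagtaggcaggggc
ATP5MJ (lower; chr14:103921530-103921629, - strand, NRF1): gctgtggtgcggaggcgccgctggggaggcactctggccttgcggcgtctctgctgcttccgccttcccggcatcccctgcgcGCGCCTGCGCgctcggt
COX6B1 (lower; chr19:35648223-35648322, + strand, ETS): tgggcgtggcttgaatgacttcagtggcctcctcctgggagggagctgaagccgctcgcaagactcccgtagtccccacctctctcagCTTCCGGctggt
NDUFV3 (higher; chr21:42893209-42893308, + strand): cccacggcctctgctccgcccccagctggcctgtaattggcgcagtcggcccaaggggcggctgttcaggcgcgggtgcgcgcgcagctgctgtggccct
UQCRQ (higher; chr5:132866542-132866641, + strand, ETS): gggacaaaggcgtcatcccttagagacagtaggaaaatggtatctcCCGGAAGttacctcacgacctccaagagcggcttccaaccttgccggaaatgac
Motifs were found in 3 of the 4 lower and 1 of the 2 higher members. Any of the motifs was in 51.3% of the promoters of tested members and in 27.7% of those of tested genes.

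Other gene lists held further genes of the pathway and, for comparison, ribosomal protein and hypoxia genes. Together they gave 0 of 279 tested genes with an adjusted p under 0.05 in limma, beside 0% of all tested genes. The genes named here had the smallest p of their list. Of the 13 subunits encoded in mitochondrial DNA, 5 were higher and 8 lower, with a median log2 fold change of -0.04. MT-CYB, the cytochrome b of complex III, had 6149, 5803 and 4943 CPM with GFP and 4500, 4468 and 3855 CPM with POU5F1B, without overlap (log2 fold change -0.40 ± 0.12, limma adjusted p = 0.294). Assembly factors of complex I were split 7 higher to 10 lower (median -0.02; DMAC2, -0.34), those of complexes II and III 5 to 5 (-0.04; BCS1L, 0.34), those of complex IV 14 to 12 (0.03; COX15, 0.37) and those of complex V 1 to 3 (-0.08; DMAC2L, 0.30). COX15 makes the haem of complex IV, and BCS1L inserts the Rieske protein into complex III. Electron carrier genes were split 7 to 8 (COQ9, -0.22) and those of the citric acid cycle 7 to 11, with a median of -0.12.

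Regulators of mitochondrial biogenesis were split 4 higher to 8 lower (median -0.06; YY1, -0.23). Genes of the mitochondrial ribosome were split 43 to 31 (median 0.02; MRPS18B, 0.31). Cytosolic ribosomal protein genes, short abundant transcripts like those of the members, were split 35 to 46 (median -0.01; RPL24, -0.35, limma adjusted p = 0.270). Genes induced by or part of the hypoxia response were split 8 to 1 (median 0.27), with EPAS1 as given above. The lower gene was HIF1A, the other alpha subunit gene of these factors, named after its values had been seen, with 93.01, 92.5 and 133 CPM with GFP and 73.7, 83.8 and 50.1 CPM with POU5F1B, without overlap (log2 fold change -0.63 ± 0.24, limma adjusted p = 0.366).

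Some members were counted at levels that are uncertain. NDUFV2, the core subunit that accepts electrons beside the flavin, had only 1.11 to 2.35 CPM, and its pseudogene NDUFV2P1 held 67.9% of the counts of both. NDUFV2, NDUFA7 (4 to 10 counts), NDUFA13 (1.18 to 2.95 CPM) and NDUFB8 share 21.0% to 33.8% of their exonic bases with another annotated gene on the same strand, whose reads may not be assigned. COX8A shares 35.4% and had 80.1 to 111 CPM, and COX6B2 shares 29.1%. Pseudogene rows held 10.1% of the counts of SDHA and its pseudogenes, and 6.35% in the case of COX6A1. The part of the overlap and of the pseudogenes in these levels was not tested. Below the filter were NDUFA7, NDUFA4L2, COX4I2, COX6A2, COX7A1, COX7B2, COX8C, the retrogene ATP5MGL (at most 1 count a library, beside 158 to 191 CPM of ATP5MG) and both readthrough genes.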

How the data were processed

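The authors deposited raw counts per gene for each library, whole numbers with Ensembl identifiers. Per the submitters' processing notes and the study's methods, reads were mapped to hg19 with HISAT2 and counted with featureCounts, keeping uniquely mapped reads. The strand setting and annotation release are not given in the sources used here, so antisense overlaps are uncertain. Counts of genes with close copies are uncertain too. Samples were grouped by title. A symbol was found for 87.4% of 63677 identifiers.

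Genes were filtered with filterByExpr (edgeR 4.0.16; 14286 kept), scaled by TMM and tested with voom and limma 3.58.1 in R 4.3.3, 3 POU5F1B against 3 GFP libraries, with p-values adjusted by Benjamini-Hochberg over the whole table. CPM use TMM-scaled library sizes and log2 CPM a prior count of 2. Intervals are 95%. A total of 3 counts was taken as the floor; floors cover counting error only. Transcript length and GC content were known for 97.3% of tested genes. Gene coordinates are GRCh37 (hg19). Alternatives were edgeR, DESeq2 1.42.0, quality weights, other scalings and filters, a replicate block, a GC and length correction with splines of 5 degrees of freedom, and leaving out libraries. The fits were tested on simulated data.

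The members and the gene lists were chosen with earlier results of these data known. Members named are the 2 highest and 2 lowest log2 fold changes and the highest level per kb in each complex, those with unadjusted p under 0.05, alternative isoforms with their counterparts, and members below the filter. Of the other lists, the gene with the smallest p is named, except where it is not reported here. SCO2 was not analysed here. Any other gene was named after its values had been seen.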

Additional observations from a re-analysis of the deposited data

How the results depend on the processing

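Members past the threshold numbered 0 under edgeR, DESeq2, other scalings, other filters, the GC and length correction and the replicate block, 17 with replicates 1 and 2 only, 19 with sample quality weights (4 higher, 15 lower; 27.8% of all tested genes) and 0 to 9 when each library was left out; with a fold change above 2 they numbered 0 throughout. For the genes of the other lists (279 tested in the main fit) the count was 2 with DESeq2, beside 2.9% of all tested genes. It was 1 with the GC and length correction and 1 with no filter. With replicates 1 and 2 only it was 71 (25.4%), beside 29.7% of all tested genes, and with quality weights 61, beside 27.8%. It was 0 to 33 when each library was left out, with 33 without GFP replicate 3, beside 12.1%. The median log2 fold change of complex I was negative in every setting, from -0.19 to -0.11. It was -0.19 with the GC and length correction, with or without the block, and that of complex V was -0.15 to -0.057 when each library was left out, with -0.057 without GFP replicate 3. The cause was not tested.

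Replicate numbers were not shown to pair the libraries: same-numbered libraries deviated together with correlations of 0.24, 0.09 and 0.16. With the replicate block the median of complex I was -0.15 and 0 members passed.

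Signs turned for some members near 0. With the GC and length correction ATP5F1B was at -0.0045, COX4I1 at -0.036, COX6A1 at -0.12 and UQCR11 at -0.0019, and with the block added ATP5F1B was at -0.0036, COX4I1 at -0.035, COX6A1 at -0.12 and UQCR11 at -0.0072. COX8A was at 0.0084 with at least 10 counts in every sample and at 0.029 with total counts. With replicates 1 and 2 only, COX6A1 was at -0.066, SDHB at 0.024 and SDHC at -0.0023, and with quality weights COX6A1 was at -0.073, SDHB at 0.030 and SDHC at -0.0034. Leaving out libraries gave COX8A -0.18 to 0.089, COX4I1 -0.026 to 0.19, COX6A1 -0.041 to 0.057, SDHB -0.27 to 0.088, SDHC -0.0027 to 0.23 and UQCRH -0.089 to 0.00021.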
